A study of Mus musculus with 6 samples.

Results

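Aminoacyl-tRNA synthetases join each amino acid to its transfer RNA, and the genes that encode them were followed here in activated mouse CD8 T cells given ponatinib or its solvent. The 36 genes were taken by symbol from the 22095 gene rows of a deposited expression table. The 16 genes whose symbols end in 2 were grouped as mitochondrial and the other 20 as cytosolic or dual, and all 36 were found. Levels were in TPM (reads scaled by transcript length and then to a fixed total per library), so they can be compared between genes as well as between libraries. Naive CD8 T cells had been purified from spleens of wild-type C57BL/6 mice, an inbred strain, and activated for 48 h through CD3 and CD28 with antibodies, in RPMI medium with fetal bovine serum, glutamine, mercaptoethanol and recombinant mouse IL-2. The ponatinib group had 3 libraries from cells that also received 10 nM ponatinib, a drug that blocks BCR-ABL and a range of further kinases. The DMSO group had 3 libraries from cells that received the solvent. Whether replicates are separate mice or cultures is not in the labels, so the spread behind each p-value is that between these samples and may be technical.

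In the cytosol, charged transfer RNAs feed the ribosomes that read nuclear messages, while a second set of nuclear-encoded enzymes is imported into mitochondria and serves the ribosomes there. Gars and Kars each encode both the cytosolic and the mitochondrial form, and Eprs encodes a fused enzyme for glutamate and proline. Several cytosolic enzymes sit in a multisynthetase complex, the rest are free. When uncharged transfer RNA accumulates, the kinase GCN2 (Eif2ak4) phosphorylates eIF2 and the transcription factor ATF4 is made, which is known to raise amino acid synthesis genes and part of the cytosolic synthetase genes. Activated T cells make much protein and depend on this supply.

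The promoters of 5 synthetase genes that fell with ponatinib are shown because each holds a match to the element that ATF4 binds with its C/EBP partners. The RefSeq promoter table for GRCm38.p6 gave windows of 300 bases (250 before and 50 after the start site) for 27 of the 36 genes; Cars, Hars, Lars, Nars, Rars, Vars, Wars, Hars2 and Pars2 are not shown. The element was searched as TGATGNAA on both strands, where N is any base, and its matches are in capitals (as its reverse complement where it lies on the opposite strand).
Gars (chr6:55037751-55038050, plus strand): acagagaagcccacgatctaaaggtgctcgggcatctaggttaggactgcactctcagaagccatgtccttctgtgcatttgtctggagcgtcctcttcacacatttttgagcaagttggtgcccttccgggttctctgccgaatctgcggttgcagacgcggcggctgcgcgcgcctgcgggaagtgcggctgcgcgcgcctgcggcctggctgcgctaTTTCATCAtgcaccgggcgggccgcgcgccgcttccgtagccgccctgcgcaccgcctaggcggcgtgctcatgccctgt
Yars (chr4:129189653-129189952, plus strand): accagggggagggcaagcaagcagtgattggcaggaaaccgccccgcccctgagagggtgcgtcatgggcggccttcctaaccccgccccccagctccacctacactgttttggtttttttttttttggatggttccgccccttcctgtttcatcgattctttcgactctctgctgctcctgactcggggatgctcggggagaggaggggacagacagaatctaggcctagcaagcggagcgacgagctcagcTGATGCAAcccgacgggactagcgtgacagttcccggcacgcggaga
Aars (chr8:111033592-111033891, plus strand): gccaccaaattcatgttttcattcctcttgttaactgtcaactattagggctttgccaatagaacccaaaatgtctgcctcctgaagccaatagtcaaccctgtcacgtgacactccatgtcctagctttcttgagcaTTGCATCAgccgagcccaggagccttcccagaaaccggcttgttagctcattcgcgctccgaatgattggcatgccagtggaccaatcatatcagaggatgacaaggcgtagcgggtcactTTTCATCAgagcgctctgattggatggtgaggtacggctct
Tars (chr15:11399609-11399908, minus strand): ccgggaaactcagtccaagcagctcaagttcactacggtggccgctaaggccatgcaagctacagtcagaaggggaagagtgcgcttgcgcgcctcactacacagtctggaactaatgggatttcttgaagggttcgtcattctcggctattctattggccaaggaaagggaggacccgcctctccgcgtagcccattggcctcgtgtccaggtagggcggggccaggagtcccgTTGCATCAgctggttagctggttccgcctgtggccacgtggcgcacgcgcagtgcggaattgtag
Iars (chr13:49681880-49682179, plus strand): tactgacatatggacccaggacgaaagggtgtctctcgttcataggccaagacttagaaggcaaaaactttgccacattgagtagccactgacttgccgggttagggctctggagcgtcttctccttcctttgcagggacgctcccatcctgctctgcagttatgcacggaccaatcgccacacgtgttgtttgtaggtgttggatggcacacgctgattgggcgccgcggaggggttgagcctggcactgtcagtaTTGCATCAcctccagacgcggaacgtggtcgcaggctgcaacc

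Matches stood in 5 of the 27 promoters, 18.5%, against 3.97% of all 32851 windows in the table. The share over all windows was taken without leaving out a chromosome. Of 8 cytosolic genes that were lower with ponatinib and were searched, 5 held the element. Of 5 other cytosolic genes 0 did, and of 14 mitochondrial genes 0 did. Cars, Lars, Nars and Vars, also lower, were not searched. Aars had 2 matches, 112 bases before the start site and 9 bases after it. In Yars, Iars, Tars and Gars the match began 3 and 7 bases after and 15 and 30 bases before the start site. The E-box CACGTG, which MYC binds, and the motif of NRF1 (GCGC, any 1 base, then TGCGC) were each found in 5 of 27 promoters, against 7.15% and 4.60% of all windows. The E-box was in 3 of the 8 lower cytosolic genes, 1 of the 5 other cytosolic genes and 1 of the 14 mitochondrial genes, and the NRF1 motif in 1 of 8, 2 of 5 and 2 of 14. No match of 1 motif overlapped a match of another. A match describes letters in the window and shows no binding.

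**Figure D1:**
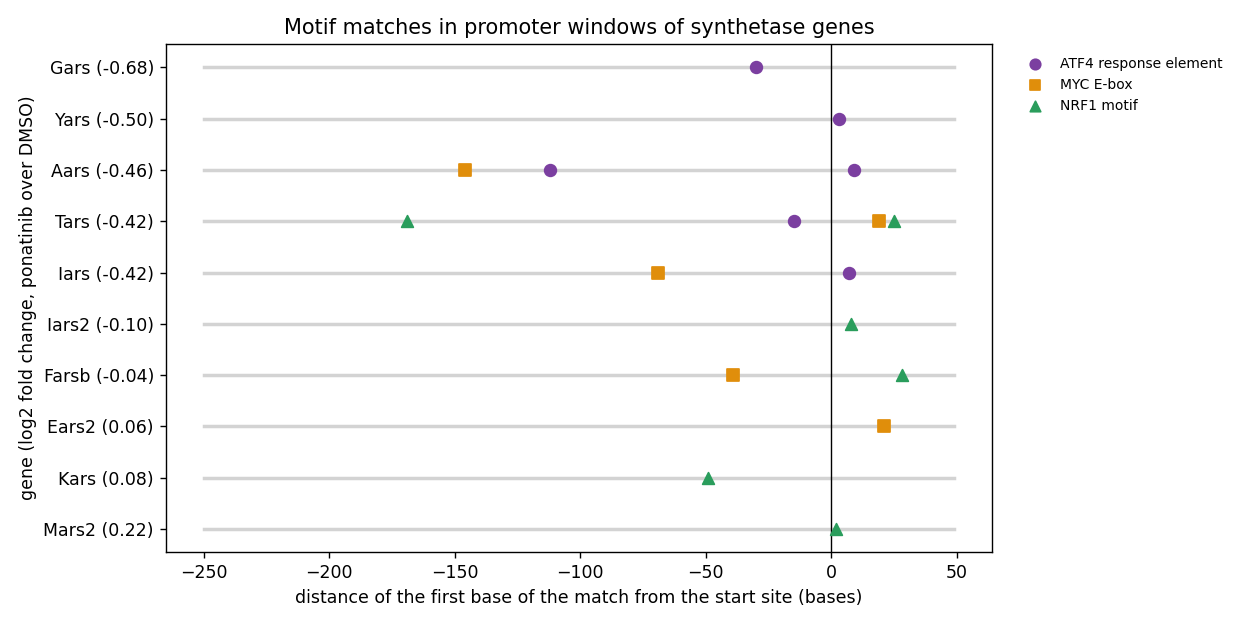
Position of motif matches in the promoter windows of the 10 synthetase genes with any match. The horizontal axis is the distance from the start site in bases, grey lines are the windows, symbols are motifs, and genes run down by log2 fold change (ponatinib over DMSO). The ATF4 element appears only in the 5 top genes, Gars to Iars, all lower with ponatinib; the other motifs are spread over lower and not called genes.

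The libraries carried CD8 T cell markers: Cd3d, Cd3e, Cd3g, Cd8a and Cd8b1 summed to 1562 to 1795 TPM with ponatinib and to 1332 to 1354 TPM with DMSO. Each set of markers of other cell types summed to less, and none of these 22 markers was at 0 in all libraries. The 2 CD4 T cell markers summed to 11.4 to 14.98 TPM with ponatinib and 1.92 to 3.62 TPM with DMSO, and the 6 myeloid markers to 4.82 to 6.82 and 0.965 to 1.14 TPM. The 6 B cell markers summed to 152 to 174 and 137 to 166 TPM, mostly Ighm. The 3 NK markers summed to 33.6 to 42.3 and 18.2 to 30.3 TPM, mostly Eomes, while Ncr1 and Klrb1c were at 0.446 TPM or less in every library. The 5 erythroid and platelet markers summed to 2.19 to 4.80 and 0.483 to 1.25 TPM. DMSO replicate 3 stood apart: transcripts of the mitochondrial genome held 4.78% of its TPM, against 7.16% to 8.19% with ponatinib and 9.76% and 10.7% in DMSO replicates 1 and 2. The part of these differences in the synthetase results was not tested. In bulk RNA, fewer cells of a type and less RNA per cell cannot be told apart.

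On gene rows, cytosolic synthetase messages were more abundant than mitochondrial ones. Means over the 6 libraries ran from 36.8 to 319 TPM for the 20 cytosolic or dual genes, with a median of 122 TPM, and from 2.75 to 36.6 TPM for the 16 mitochondrial genes, with a median of 11.9 TPM. The highest was Kars, lysyl-tRNA synthetase, followed by Gars and Sars, for glycine and serine. This order holds for gene rows alone: with separate transcript rows added, Sars averaged 259 TPM with ponatinib and 461 TPM with DMSO, and Kars 331 TPM with ponatinib and 315 TPM with DMSO. The lowest cytosolic gene row, Qars, met the highest mitochondrial one, Tars2, at 36.8 and 36.6 TPM, but most of Qars was listed in separate transcript rows, as was most of Lars2, which with them averaged 162 TPM with ponatinib and 153 TPM with DMSO. Mars2 and Wars2, for methionine and tryptophan in mitochondria, had the lowest gene rows, at 3.55 and 2.75 TPM.

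**Figure D2:**
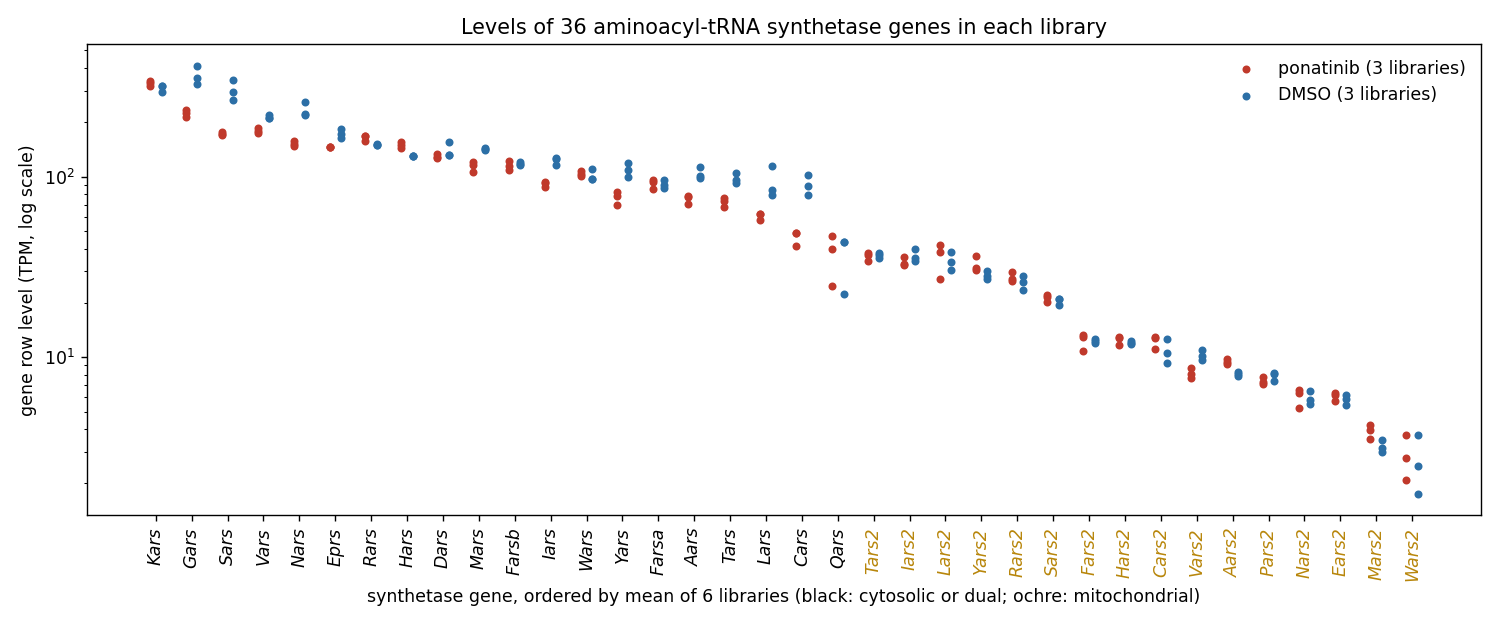
Level of each synthetase gene in every library, as TPM on a log axis, with genes ordered by their mean; red points are the 3 ponatinib libraries (left of each position) and blue points the 3 DMSO libraries. The cytosolic genes run from 319 down to 36.8 TPM and the mitochondrial genes from 36.6 down to 2.75 TPM.

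The comparison asked which synthetase genes differed when cells were activated with ponatinib rather than solvent. With ponatinib 12 of the 20 cytosolic or dual genes fell and 1, Hars, rose, whereas 1 of the 16 mitochondrial genes, Vars2, fell and 0 rose. All 36 passed the minimum mean of 1 TPM. Genes were tested with limma on log2(TPM + 1), a scale on which low genes show less than their full change, and called at a Benjamini-Hochberg adjusted p under 0.05 over all 10039 genes tested. Among those, 9.54% were lower and 23.9% higher. The median log2 fold change was -0.29 over the cytosolic genes and 0.05 over the mitochondrial genes, against 0.09 over all genes tested. The share of higher calls over all genes depended on the scaling, at 71.5% with TPM as deposited and 49.1% after scaling by medians of ratios; there all 13 lower members stayed lower (log2 fold changes from -1.04 to -0.34), while the call of Hars was lost.

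**Figure D3:**
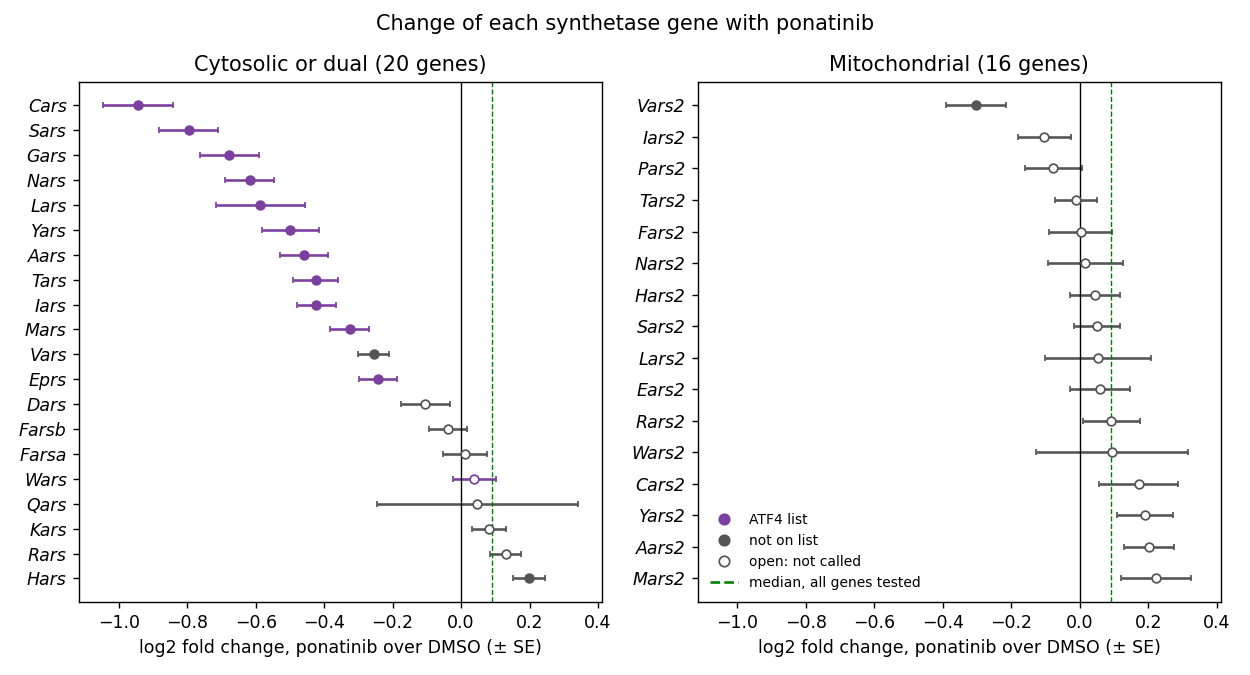
Log2 fold change of each gene, ponatinib over DMSO, with its standard error from limma, for cytosolic or dual genes (left) and mitochondrial genes (right). Purple marks the 12 genes listed as ATF4 targets, open circles genes that were not called, and the dashed line the median of all genes tested, 0.09. From Cars at the top to Eprs, 12 cytosolic genes lie below 0 and are called, against Vars2 alone on the right.

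The 5 cytosolic genes with the largest change charge cysteine, serine, glycine, asparagine and leucine, and all 5 are on the list of ATF4 targets. That list came from textbook knowledge and was chosen with earlier results of these data known. Cars (chromosome 7, 143557230 to 143600090, minus strand) had 41.4, 48.6 and 49.0 TPM with ponatinib and 88.8, 79.6 and 103 TPM with DMSO. Its level thus fell by 48.7%, a log2 fold change of -0.94 (SE 0.10, adjusted p = 8.04e-04 by limma). Its groups lay well apart, as did those of Sars (chromosome 3, 108424865 to 108445209, minus strand). Sars had 169, 172 and 176 TPM with ponatinib and 293, 268 and 345 TPM with DMSO (log2 fold change -0.80, SE 0.09, adjusted p = 7.90e-04). Gars, whose product also works in mitochondria, had 215, 226 and 235 TPM with ponatinib and 350.0, 326 and 412 TPM with DMSO (-0.68, SE 0.09, adjusted p = 0.00138). In both genes the ponatinib libraries were close together and DMSO replicate 3 was the highest. Nars had 147, 151 and 157 TPM with ponatinib and 223, 219 and 260 TPM with DMSO (-0.62, SE 0.07, adjusted p = 9.58e-04). Lars had 57.3, 62.1 and 62.4 TPM with ponatinib and 84.3, 78.8 and 115 TPM with DMSO (-0.59, SE 0.13, adjusted p = 0.0118). For Lars the size rested partly on DMSO replicate 3: without it the log2 fold change was -0.42 (adjusted p = 0.00117).

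Smaller falls were seen in 6 further genes of the ATF4 list. Yars, for tyrosine, had 69.7, 78.2 and 82.6 TPM with ponatinib and 109, 99.8 and 119 TPM with DMSO (log2 fold change -0.50, SE 0.08). Aars, for alanine, had 70.8, 77.0 and 78.4 TPM with ponatinib and 101, 98.2 and 113 TPM with DMSO (-0.46, SE 0.07). Ponatinib replicate 1 was the lowest of its group in both, and no ponatinib value reached a DMSO value. Tars, for threonine, averaged 72.4 ± 3.98 TPM with ponatinib and 97.6 ± 6.18 TPM with DMSO (SD, n = 3 each), and Iars, for isoleucine, 91.4 ± 3.31 and 123 ± 6.50 TPM; both fell by 0.42 on the log2 scale. These are 4 of the 5 genes whose promoters are printed above, Gars being the other. Mars, for methionine, averaged 114 ± 7.19 TPM with ponatinib and 143 ± 1.62 TPM with DMSO (-0.33, SE 0.06). Its exons share 68 bases with Ddit3 on the opposite strand, a gene of the ATF4 response that also fell. Eprs, the fused enzyme for glutamate and proline, averaged 146 ± 0.594 and 173 ± 11.1 TPM (-0.24, SE 0.06). In limma the adjusted p of these 6 genes ranged from 0.00168 for Iars to 0.0131 for Eprs. The Eprs call was lost without ponatinib replicate 2 or 3, at 0.0510 and 0.0509.

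Wars, for tryptophan, was the 1 gene of the 12 on the ATF4 list that was not called. It had 108, 103 and 101 TPM with ponatinib and 97.1, 97.0 and 110 TPM with DMSO (log2 fold change 0.04, SE 0.06, adjusted p = 0.673 by limma). The human form of this gene is known to be induced by interferon gamma. All 12 genes of the list had their highest DMSO value in replicate 3, as did 17 of the 20 cytosolic genes and 8 of the 16 mitochondrial genes. Without DMSO replicate 3, 11 of the 12 were still lower, and the sizes were smaller: Cars stood at -0.85, Sars at -0.70 and Gars at -0.58.

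Of the 8 cytosolic or dual genes not on that list, 1 fell, 1 rose and 6 were not called. Over all genes tested 9.54% were lower and 23.9% higher, so these counts do not set the 8 apart. Vars, for valine, fell, with 173, 186 and 179 TPM in ponatinib libraries and 219, 212 and 211 TPM in DMSO libraries (log2 fold change -0.26, SE 0.05, adjusted p = 0.00532 by limma). Hars, for histidine, rose, with 144, 149 and 156 TPM in ponatinib libraries and 130, 130 and 131 TPM in DMSO libraries (0.20, SE 0.05, adjusted p = 0.0157). The Hars rise of 0.20 stood against a median of 0.09 over all genes, and 3 of the 6 fits with a library left out did not call it, those without ponatinib replicate 2 (adjusted p = 0.0611), ponatinib replicate 3 (0.0643) and DMSO replicate 1 (0.0553). Rars, for arginine, had 159, 167 and 168 TPM with ponatinib and 149, 150 and 151 TPM with DMSO, groups that did not overlap, but did not pass the test (0.13, SE 0.04, adjusted p = 0.0560). Without DMSO replicate 3 or ponatinib replicate 1 it did (0.0405 and 0.0497). Kars, for lysine, had 317, 337 and 329 TPM with ponatinib and 317, 317 and 295 TPM with DMSO, groups that just failed to overlap (0.08, SE 0.05, adjusted p = 0.232). Dars, for aspartate, averaged 130 ± 3.21 and 140 ± 13.4 TPM (-0.10, adjusted p = 0.287); after scaling by medians of ratios or by quantiles it was called lower, at -0.20 and -0.19 (0.0185 and 0.0306). Farsa and Farsb, which encode the 2 subunits of the phenylalanine enzyme, lay at 0.01 and -0.04. Groups did not overlap in 15 of the 20 cytosolic genes, 12 lower and 3 higher with ponatinib, where 49.4% of all genes tested were so separated, 14.9% lower and 34.5% higher.

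Summed over genes, the 12 on the ATF4 list came to 1286, 1346 and 1377 TPM with ponatinib and 1883, 1776 and 2137 TPM with DMSO, a difference of -30.8%. The 8 other cytosolic or dual genes came to 1162, 1217 and 1207 TPM with ponatinib and 1206, 1165 and 1198 TPM with DMSO, and the 16 mitochondrial genes to 269 ± 17.8 TPM with ponatinib and 261 ± 1.69 TPM with DMSO (SD, n = 3 each). Only the first of these sums had groups that did not overlap. Within the multisynthetase complex the same split ran through the enzymes: Eprs, Iars, Lars and Mars, on the ATF4 list, were lower, and Dars, Kars, Qars and Rars were not called. Of the 12 free enzymes 8 were lower and 1 higher, with a median of -0.44, against -0.17 over the 8 of the complex. The ATF4 list holds 8 of the free enzymes and 4 of the complex, with medians of -0.56 and -0.37. Off the list the medians were -0.01 for free enzymes and 0.06 for those of the complex. Over all genes tested, 9.54% were lower and 23.9% higher. By catalytic fold, 6 of 9 cytosolic enzymes of class I and 5 of 10 of class II were lower, with medians of -0.33 and -0.26; Eprs, also lower, holds one of each. These subgroups were compared without a test.

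**Figure D4:**
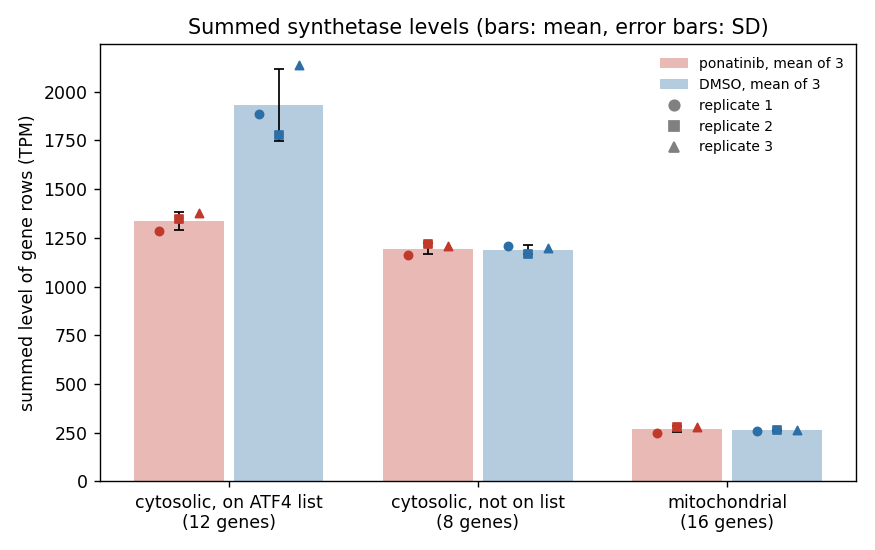
Summed TPM of gene rows for cytosolic genes on the ATF4 list, cytosolic or dual genes not on it, and mitochondrial genes. Bars are means of 3 libraries with SD, red for ponatinib (left) and blue for DMSO (right), and symbols are replicates. The first sum averages 1337 TPM with ponatinib and 1932 TPM with DMSO; the second averages 1195 and 1190 TPM and the third 269 and 261 TPM.

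Mitochondrial synthetase genes stayed within a narrow range, with log2 fold changes from -0.30 to 0.22. Vars2, the mitochondrial valine enzyme (chromosome 17, 35655634 to 35667592, minus strand), had 8.74, 7.64 and 8.02 TPM with ponatinib and 9.60, 10.2 and 11.0 TPM with DMSO. It was the single one called (-0.30, SE 0.09, adjusted p = 0.0319 by limma). That call was lost without ponatinib replicates 2 and 3 (0.121 and 0.101) and DMSO replicates 1 and 2 (0.0531 and 0.0664), with no filter (0.0550) and with transcript rows added (0.0981). At the other end, Mars2 averaged 3.90 ± 0.349 TPM with ponatinib and 3.20 ± 0.238 TPM with DMSO (SD, n = 3 each; 0.22, SE 0.10, adjusted p = 0.131). Aars2, for alanine, had 9.21, 9.77 and 9.45 TPM with ponatinib and 7.92, 8.09 and 8.31 TPM with DMSO (0.20, SE 0.07, adjusted p = 0.0695; 0.0383 without DMSO replicate 3). Yars2, for tyrosine, had 30.4, 36.3 and 31.2 TPM with ponatinib and 28.2, 30.0 and 27.2 TPM with DMSO (0.19, SE 0.08, adjusted p = 0.109). In all 3 every ponatinib value was above every DMSO value, yet none passed the test. Of the 16 mitochondrial genes 3 were so separated higher and 1 lower, where 34.5% and 14.9% of all genes tested were. Iars2 was at -0.10 (adjusted p = 0.327) and was called lower after scaling by medians of ratios or by quantiles (0.0303 and 0.0396). The other 11 lay between -0.08 and 0.17 with adjusted p of 0.286 or more.

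These 11 serve cysteine (Cars2), glutamate (Ears2), phenylalanine (Fars2), histidine (Hars2), leucine (Lars2), asparagine (Nars2), proline (Pars2), arginine (Rars2), serine (Sars2), threonine (Tars2) and tryptophan (Wars2). Tars2, the highest of them on gene rows, averaged 36.4 ± 1.90 TPM with ponatinib and 36.7 ± 1.01 TPM with DMSO (SD, n = 3 each). Rars2 averaged 27.7 ± 1.76 TPM with ponatinib and 26.0 ± 2.35 TPM with DMSO, and Sars2 21.3 ± 0.890 TPM with ponatinib and 20.5 ± 0.932 TPM with DMSO. For all 3 the means lay within 0.1 log2 units of each other, and the groups overlapped. Fars2, Hars2 and Cars2 stood near the middle of the mitochondrial group. Fars2 averaged 12.4 ± 1.35 TPM with ponatinib and 12.3 ± 0.337 TPM with DMSO, and Cars2 12.2 ± 0.992 TPM with ponatinib and 10.8 ± 1.66 TPM with DMSO. Hars2 had 12.8, 11.6 and 12.9 TPM with ponatinib and 11.8, 11.9 and 12.3 TPM with DMSO. Pars2 averaged 7.40 ± 0.373 TPM with ponatinib and 7.87 ± 0.431 TPM with DMSO, Nars2 6.05 ± 0.723 TPM with ponatinib and 5.96 ± 0.498 TPM with DMSO and Ears2 6.10 ± 0.319 TPM with ponatinib and 5.81 ± 0.374 TPM with DMSO. Wars2, at 2.85 ± 0.798 TPM with ponatinib and 2.64 ± 0.985 TPM with DMSO, was the least sure, with an SE of 0.22 on its log2 fold change of 0.09. In 12 of the 16 mitochondrial genes and 17 of the 20 cytosolic genes ponatinib replicate 1 was the lowest ponatinib library.

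Setting each mitochondrial enzyme beside the cytosolic enzyme for the same amino acid gave 17 pairs, with Eprs paired to both Ears2 and Pars2 and Fars2 to both cytosolic subunits. The ratio of levels, cytosolic over mitochondrial, was lower in every ponatinib library than in any DMSO library in 10 pairs, and higher in 1, Hars over Hars2. In each of these 10 pairs the cytosolic gene was itself called lower, so the count repeats those calls. Groups did not overlap in 49.4% of all single genes tested. No such share was taken for ratios of other gene pairs. Sars over Sars2 was 8.32, 8.01 and 7.99 with ponatinib and 15.1, 12.7 and 16.4 with DMSO. Cars over Cars2 was 3.73, 3.77 and 3.85 with ponatinib and 8.42, 6.31 and 11.0 with DMSO. The groups were thus apart in cysteine and serine, and also in alanine, asparagine, isoleucine, leucine, methionine, threonine and tyrosine and in Eprs over Ears2. They overlapped in arginine, proline, tryptophan, valine and both phenylalanine pairs. Wars over Wars2 ran from 27.5 to 51.5 with ponatinib and from 26.3 to 55.5 with DMSO, with Wars2 itself between 1.75 and 3.70 TPM.

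The table also listed 83 transcripts of 28 of these genes in rows of their own, all outside the basic set of the GENCODE annotation, and 25 had a mean of at least 1 TPM. Fitted with all 14221 gene and transcript rows of that level, 4 of the 25 were lower and 0 higher, where 5.72% and 14.6% of all rows were. The transcript Sars-204 had 70.0, 96.7 and 93.4 TPM with ponatinib and 155, 148 and 174 TPM with DMSO (log2 fold change -0.88, SE 0.13, adjusted p = 0.00790 by limma). Nars-212, annotated as subject to nonsense-mediated decay, had 30.4, 33.9 and 38.6 TPM with ponatinib and 60.2, 54.6 and 70.8 TPM with DMSO (-0.83, SE 0.12, adjusted p = 0.00743). Both fell as their gene rows did. Sars-204 held 33.3 ± 3.55% of all Sars TPM with ponatinib and 34.6 ± 1.04% with DMSO, and Nars-212 held 16.1 ± 1.14% and 18.2 ± 0.769% of Nars (SD, n = 3 each). The share of Nars-212 was lower in every ponatinib library (15.4%, 15.5% and 17.4%) than in any DMSO library (19.1%, 18.1% and 17.6%). These shares were not tested. Groups did not overlap in the 4 called rows of the 25 and in no other, against 40.8% of all rows. The other 2 called rows were low: Kars-205 averaged 2.57 TPM with ponatinib and 4.71 TPM with DMSO, and Farsa-206 averaged 0.573 and 2.00 TPM.

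Transcript rows held 79.7% of all Qars TPM, the enzyme for glutamine, and 77.8% of all Lars2 TPM. The Qars gene row was erratic, with 47.2, 39.8 and 24.9 TPM with ponatinib and 43.3, 22.5 and 43.4 TPM with DMSO, and its log2 fold change of 0.05 had an SE of 0.29. With transcript rows added, Qars averaged 177 ± 14.3 TPM with ponatinib and 186 ± 20.9 TPM with DMSO (-0.07, SE 0.09, adjusted p = 0.617 by limma), which places it among the other cytosolic genes. Lars2 likewise had 1 transcript, Lars2-209, at 121, 123 and 136 TPM with ponatinib and 130.0, 114 and 111 TPM with DMSO, above its gene row in every library. How reads are divided among transcripts of a gene is an estimate, so these splits are less sure than the sums. With transcript rows added to every gene, 12 cytosolic genes were lower and 1 higher, and 0 mitochondrial genes were called.

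**Figure D5:**
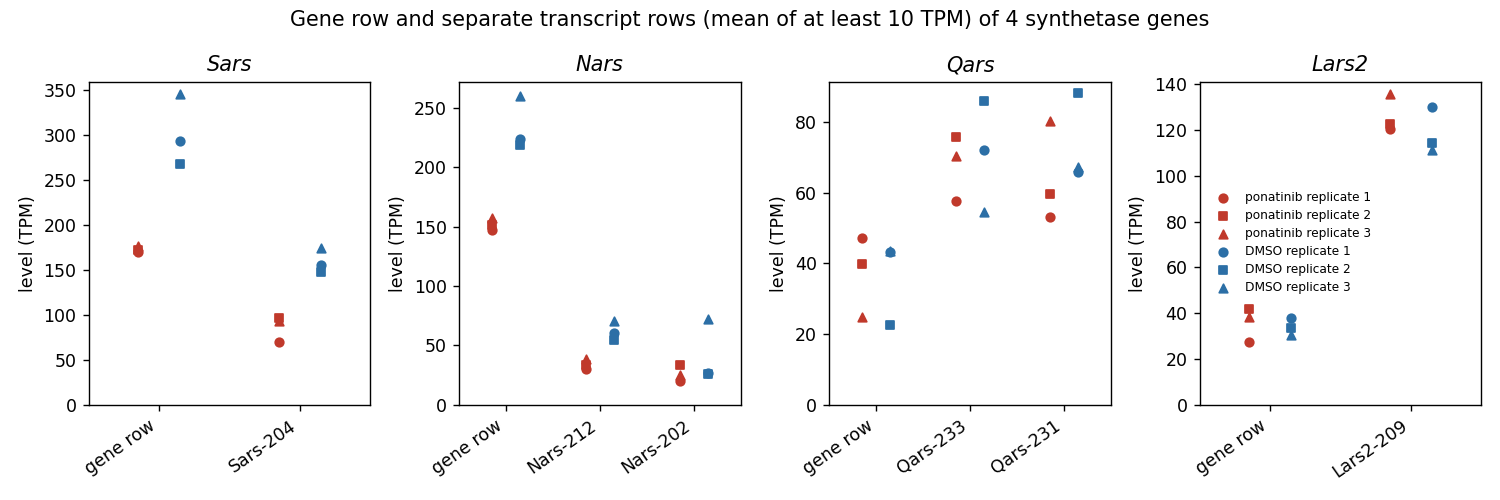
TPM of the gene row and of separate transcript rows with a mean of at least 10 TPM for Sars, Nars, Qars and Lars2; red is ponatinib (left of each position), blue is DMSO, and symbols are replicates. Sars-204 and Nars-212 are lower in each ponatinib library than in each DMSO library, as their gene rows are, while the rows of Qars and Lars2 overlap between groups.

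Around the synthetases, 2 of 14 genes that handle transfer RNA were called, 1 in each direction. Over all genes tested, 9.54% were lower and 23.9% higher. Several calls in these lists depended on the scaling. The scaffold genes of the multisynthetase complex, Aimp1, Aimp2 and Eef1e1, gave 0 of 3 called (log2 fold changes of -0.12, -0.02 and 0.14). Aimp1 was called lower after scaling by medians of ratios (-0.22, adjusted p = 0.0154) or by quantiles (-0.19, adjusted p = 0.0140). Of 4 genes for the mitochondrial glutamine and formylmethionine steps, Gatc, a subunit of the amidotransferase that makes mitochondrial glutaminyl-tRNA, rose, with 17.2, 17.2 and 17.7 TPM in ponatinib libraries and 13.5, 13.6 and 13.5 TPM in DMSO libraries (0.34, SE 0.06, adjusted p = 0.00602 by limma). Its partner subunits Gatb and Qrsl1 were at 0.05 and 0.15, and Mtfmt, which formylates the initiator, at 0.15; none of the 3 was called. Of 7 genes for export and delivery of transfer RNA, Eef1g, a subunit of the elongation factor 1 complex, fell to 1511 ± 46.4 TPM with ponatinib, against 1683 ± 18.9 TPM with DMSO (-0.16, SE 0.04, adjusted p = 0.0260, or up to 0.0957 with 1 library left out). After quantile normalization it was not called (-0.08, adjusted p = 0.143). Xpot, the nuclear export receptor for transfer RNA, was at -0.27 (adjusted p = 0.0969), and DMSO replicate 3, at 64.1 TPM, was the highest library; it was called lower with medians of ratios (-0.36, adjusted p = 0.0145) and quantiles (-0.34, adjusted p = 0.0252). Eef1a1, which carries charged transfer RNA to the ribosome, was at -0.16, and Eef1d at 0.21; neither passed (0.104 and 0.0562). Eef1a1 was called lower with medians of ratios (-0.25, adjusted p = 0.0212) and had the opposite sign with quantiles (0.12, adjusted p = 0.433).

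Most genes of the GCN2 and ATF4 response fell, with a median change larger than the -0.48 of the synthetase genes of the ATF4 list. Of 15 tested of 16 listed, 13 were lower and 1 higher, where 9.54% of all genes tested were lower and 23.9% higher. The median log2 fold change of the 15 was -1.18, with a range from -2.97 to 0.65. Trib3, a pseudokinase that restrains ATF4, Chac1, which degrades glutathione, and Asns, asparagine synthetase, had -2.97, -2.59 and -2.50, and Psat1, of serine synthesis, had -0.69, with adjusted p of 1.04e-04, 1.04e-04, 8.21e-04 and 0.00127 by limma. Atf4 itself, named after its values were seen, had 144, 172 and 178 TPM with ponatinib and 342, 317 and 484 TPM with DMSO (-1.18, SE 0.15, adjusted p = 0.00155). Its DMSO replicate 3 was the highest, as in the synthetase genes of the ATF4 list. Eif2ak4, which encodes GCN2, was lower (-0.32, adjusted p = 0.0391) and its inhibitor Impact higher (0.65, adjusted p = 0.0463), both also looked at after the test; with 1 library left out their adjusted p reached 0.127 and 0.136. Impact was low, at 2.59, 2.40 and 2.75 TPM with ponatinib and 1.01, 0.822 and 2.24 TPM with DMSO. Gcn1, the activator of GCN2, was at 0.04, and Slc7a11 was under the minimum mean.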

How the data were processed

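RNA sequencing of 3 ponatinib and 3 DMSO libraries of mouse CD8 T cells had been made from total RNA with a NEBNext Ultra II kit, per the labels' protocols; nothing there states whether strand was kept. The authors deposited 1 table of normalized values, read as TPM because every column sums to 1000000 and the values are not whole. Tools given without roles in the submitters' processing notes are fastp 0.19.5, Salmon 1.5.1 and DESeq2 1.22.1, with the build GRCm38. Read depth cannot be had from TPM, so values carry no counting interval. No column belonged to another sample.

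The table held 22095 gene rows and 20977 transcript rows. Gene names and positions were taken from GENCODE release 21 for mouse (GRCm38), matched on identifiers without version, which found 22011 and 20793. Gene rows alone were used; adding transcript rows to their gene was an alternative. Gene rows held between 92.9% and 93.2% of each library's TPM. Rows with a mean of at least 1 TPM were transformed to log2(TPM + 1) and compared with limma 3.58.1 (eBayes with a trend) in R 4.3.3, two-sided, without a replicate block, and checked on simulated data. The minimum of 1 TPM was used because several mitochondrial genes lie under 10 TPM. All 36 genes are described. Of each pathway list up to 4 genes with the smallest p are named. From the GCN2 and ATF4 list, Atf4, Eif2ak4, Impact, Gcn1, Slc7a11 and Ddit3 are named outside that rule. A list of proofreading and recycling genes is not reported here.

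The members, the lists (among them the ATF4 targets, from textbook knowledge) and the tests were chosen with earlier results of these data known. Opposite-strand genes share exonic bases with some members: 195 between Hars and Hars2, 68 between Mars and Ddit3, 465 between Vars2 and Gm20483, 248 between Farsb and Sgpp2 and 2034 between Iars2 and Rab3gap2, where reads cannot be told apart without strand.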

Additional observations from a re-analysis of the deposited data

How the results depend on the processing

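The count of lower cytosolic genes was 13 with medians of ratios or quantiles, where Dars was added, 12 under the other alternatives that kept all 6 libraries and 11 to 12 with 1 library left out, and 11 of the 12 ATF4-list genes were lower throughout, or 10 to 11 with 1 library left out. Over all genes, medians of ratios gave 1500 higher and 1552 lower, quantile normalization gave 1446 lower, and leaving out 1 library gave 1345 to 3534 higher and 626 to 1011 lower. Higher cytosolic genes numbered 2 with no filter (Hars and Rars), 0 with medians of ratios or quantiles, and 0 to 2 with 1 library left out. Lower mitochondrial genes numbered 0 with a minimum of 10 TPM, where Vars2 was not tested, 0 with no filter, with transcript rows added and with a replicate block, 2 with medians of ratios or quantiles (Vars2 and Iars2), and 0 to 1 with 1 library left out; higher ones numbered 0 to 1. The cytosolic median was -0.38 with medians of ratios, -0.36 with quantiles and -0.31 to -0.26 with 1 library left out; the mitochondrial median was -0.038 with medians of ratios and 0.0080 to 0.096 with 1 library left out. Lower transcript rows numbered 2 with a minimum of 10 TPM and 2 to 5 with 1 library left out; higher ones numbered 1 with a replicate block and 0 to 1 with 1 library left out. Signs turned only in genes that were not called. With medians of ratios these were Farsa -0.080, Kars -0.011, Qars -0.042, Wars -0.053, Ears2 -0.022, Fars2 -0.084, Hars2 -0.042, Lars2 -0.038, Nars2 -0.063, Sars2 -0.038, Gatb -0.036; with quantiles Farsa -0.064, Qars -0.029, Wars -0.027, Ears2 -0.0014, Fars2 -0.082, Hars2 -0.034, Lars2 -0.023, Nars2 -0.046, Sars2 -0.039, Gatb -0.014, Eef1a1 0.12; with transcript rows added Farsa -0.010, Farsb 0.0047, Qars -0.067, Tars2 0.016, Wars2 -0.11. With 1 library left out the log2 fold change of genes whose sign turned ran from -0.025 to 0.062 in Farsa, from -0.082 to 0.0024 in Farsb, from -0.26 to 0.31 in Qars, from -0.050 to 0.089 in Fars2, from -0.070 to 0.23 in Lars2, from -0.040 to 0.10 in Nars2, from -0.042 to 0.030 in Tars2, from -0.091 to 0.30 in Wars2, from -0.098 to 0.030 in Aimp2. The cause of these changes was not tested. Same-numbered libraries did not deviate together (correlations of -0.0349, 0.0563 and 0.00516). With 3 libraries per group, such correlations cannot exclude that the numbers pair the samples. The replicate block gave 2300 higher and 922 lower genes and ended the call of Vars2. Depth is unknown, so low genes such as Wars2 are limited by the spread between libraries.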
